A study of Saccharomyces cerevisiae BY4741 with 22 samples.

Results

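The comparison concerned the growth temperature of yeast and the 3' end of 18S rRNA in 10 of the 22 libraries of the series. These were all the 18S libraries made with the universal linker, without a molecular identifier (UMI), from cells with Pno1 + Dim1-E85A or Pno1-KKKF + Dim1-E85A. They comprised 4 libraries from cells grown at 25 °C (replicates 4 and 5 of each strain) and 6 from cells grown at 30 °C (replicates 1 to 3 of each strain). The ends were sequenced by 3'-RACE, in which a DNA linker is ligated to the RNA 3' end so that the last base before the linker marks the end.

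All 10 cultures were Saccharomyces cerevisiae BY4741 in YPD, and in each the chromosomal PNO1 and DIM1 genes stood behind galactose promoters (Gal::Pno1; Gal::Dim1). Growth in glucose medium represses such promoters, so that plasmid copies supplied both proteins. The groups were therefore TEF::Pno1 with Cyc1::Dim1-E85A at 25 °C and at 30 °C, and TEF::Pno1-KKKF with Cyc1::Dim1-E85A at 25 °C and at 30 °C. Every group carried the Dim1-E85A mutant, the Rps14 + Dim1 libraries of the series used another linker, and the RNA came from purified 40S subunits and the cDNA from a denaturing TBE-Urea gel. The labels count the libraries as biological replicates and give no date of growth or preparation, so temperature and any batch that followed the replicate numbers cannot be told apart.

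In the last steps of small subunit assembly the endonuclease Nob1 cuts the precursor at site D, which separates 18S rRNA from the first internal transcribed spacer (ITS1) that follows it. Pno1 binds the rRNA next to this site and leaves the subunit after the cut, and Dim1 dimethylates a pair of neighbouring adenosines in the last helix of 18S rRNA. The series' design describes Pno1-KKKF as a bypass of ribosome assembly quality control. An end short of site D is called truncated here, and an end inside ITS1 is called extended.

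Mature 18S rRNA has 1800 nucleotides, and its last base lies at position 2500 of the 35S precursor that the files use as reference. This base is called position 0, with negative positions inside 18S rRNA and positive positions in ITS1. An end was counted where the depth of reads dropped for good, within 50 nt of position 0. The libraries held 2928262 to 4373681 such ends at 25 °C and 2615354 to 2847541 at 30 °C. Position 0 was the most frequent end in all 10. Ends upstream of about -18 could not be seen, because depth still climbed there.

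At both temperatures nearly all 18S rRNA ended at position 0. In Pno1 the share at position 0 was 98.08% and 98.36% at 25 °C, against 96.38%, 97.74% and 98.15% at 30 °C. In Pno1-KKKF it was 95.21% and 97.84% at 25 °C, against 97.04%, 96.6% and 97.14% at 30 °C. The ranges overlapped in both strains, and the log2 fold change of ends at position 0, 25 °C over 30 °C, averaged 0.0029 over the strains (SE 0.0094, adjusted p = 0.784, edgeR's quasi-likelihood test with Benjamini-Hochberg adjustment). The differences that passed a test lay in small classes, most of them ends in ITS1.

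Extended ends were fewer at 25 °C in both strains. In Pno1 they made up 0.128% and 0.0714% of ends at 25 °C, against 0.422%, 0.162% and 0.186% at 30 °C. In Pno1-KKKF they made up 0.176% and 0.0670% at 25 °C, against 0.280%, 0.236% and 0.188% at 30 °C. The temperatures did not overlap within either strain, although replicate 4 of Pno1-KKKF at 25 °C lay close below replicate 3 at 30 °C. Replicate 1 of Pno1 at 30 °C stood above all the others.

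The means were 0.0999% ± 0.0403 at 25 °C (SD, n = 2) and 0.257% ± 0.144 at 30 °C (SD, n = 3) in Pno1. In Pno1-KKKF they were 0.122% ± 0.0774 at 25 °C (SD, n = 2) and 0.235% ± 0.0461 at 30 °C (SD, n = 3). Relative to position 0, extended ends were 2.28-fold lower at 25 °C over both strains. The difference in log2 odds was -1.19, with an SE of 0.48 and a two-sided exact permutation p of 0.01 (0.03 after adjustment over 3 shares). This p is the smallest that the 100 arrangements within strain allow. Like the other permutation p over both strains, it takes the libraries of the strains as independent. If same-numbered libraries were prepared together, which the labels do not say, 10 arrangements and no p below 0.1 would remain. Within a strain the log2 difference was -1.30 in Pno1 (SE 0.61, exact permutation p = 0.2) and -1.09 in Pno1-KKKF (SE 0.74, exact permutation p = 0.1), where 10 arrangements allow no p below 0.1. Leaving out any 1 of the 10 libraries kept the sign, with log2 differences of -1.55 to -0.83, but each omission raised the adjusted p to between 0.05 and 0.3, with 40 or 60 arrangements left. Without replicate 1 of Pno1 at 30 °C the value was -0.97.

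**Figure D1:**
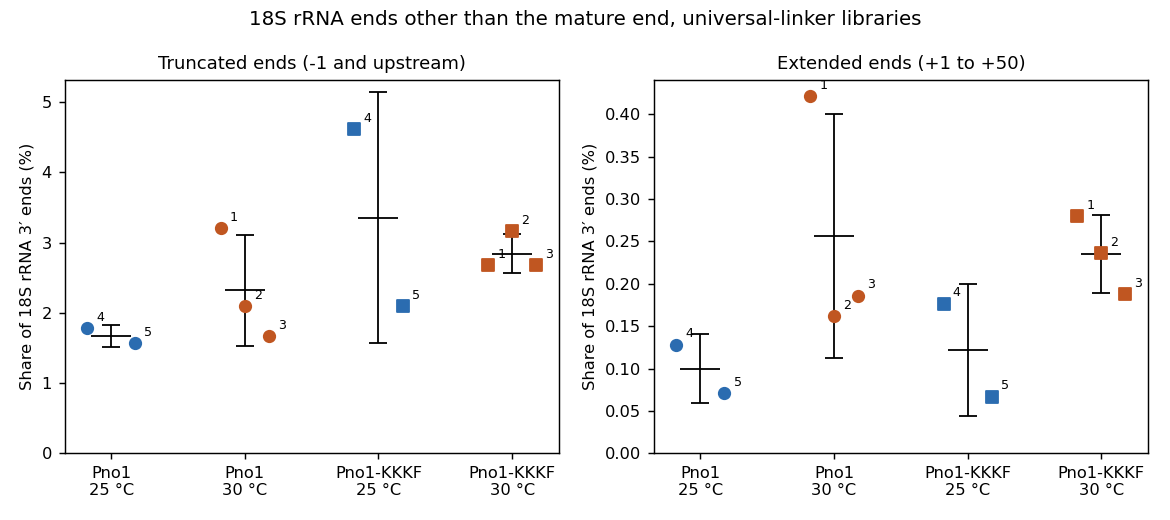
Share of 18S rRNA 3' ends (%, y axis) that were truncated (left panel) or extended (right panel), by strain and temperature. Each point is 1 library with its replicate number, and lines give the mean ± SD (n = 2 at 25 °C, n = 3 at 30 °C). Extended shares at 25 °C lie below those at 30 °C in each strain, while truncated shares overlap.

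Truncated ends showed no such shift. Their share was 1.79% and 1.57% at 25 °C, against 3.20%, 2.10% and 1.67% at 30 °C, in Pno1. In Pno1-KKKF it was 4.61% and 2.09% at 25 °C, against 2.68%, 3.16% and 2.68% at 30 °C. The temperatures overlapped in both strains, and the 2 libraries of Pno1-KKKF at 25 °C included both the highest and the lowest value of that strain. Over both strains the log2 difference was -0.15 (SE 0.33, exact permutation p = 0.63). All ends other than position 0, counted as 1 class, differed by -0.21 in log2 odds (SE 0.34, exact permutation p = 0.52, adjusted 0.63), since truncated ends outnumbered extended ones.

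Ends were then tested position by position with edgeR, each count set against the library's total ends. Of 45 positions with at least 10 ends in at least 2 libraries, 22 (48.9%) passed an adjusted p of 0.05 in Pno1, and all 22 were lower at 25 °C. In Pno1-KKKF 7 passed (15.6%), of which 6 were lower at 25 °C (13.3%) and 1 was higher (2.22%). For the mean of the strains 23 passed (51.1%), 22 of them lower (48.9%) and 1 higher (2.22%). The 6 positions called lower in Pno1-KKKF were all among the 22 called lower in Pno1. They were +10, +11, +18, +25, +26 and +27, in ITS1. The calls in Pno1-KKKF rest on few libraries. Without its replicate 5 edgeR called 0 of 45 (14 at an unadjusted p under 0.05), without its replicate 1 or its replicate 2 it called 4, and a fit of this strain alone called 0 of 39 (9 at an unadjusted p under 0.05), while DESeq2 with the totals as size factors called 8. Without replicate 5 of Pno1 the calls were 12 in Pno1 and 14 for the mean. All these calls are relative to total ends, which position 0 nearly sets. Size factors that assume most positions unchanged moved position 0 itself, by 0.65 (TMM) or 0.91 (DESeq2's default) on the log2 scale for the mean of the strains. The calls for that mean then became 5 higher and 7 lower (TMM) or 13 higher and 9 lower (DESeq2's default), 4 lower or 11 higher and 6 lower in Pno1, and 3 higher or 7 higher and 2 lower in Pno1-KKKF. The calls at +10, +11, +18, +25, +26 and +27 for the mean stayed lower under both. Of the 45 positions, 37 reached the minimum of ends at both temperatures, 7 through the 30 °C libraries only and 1 through the 25 °C libraries only.

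**Figure D2:**
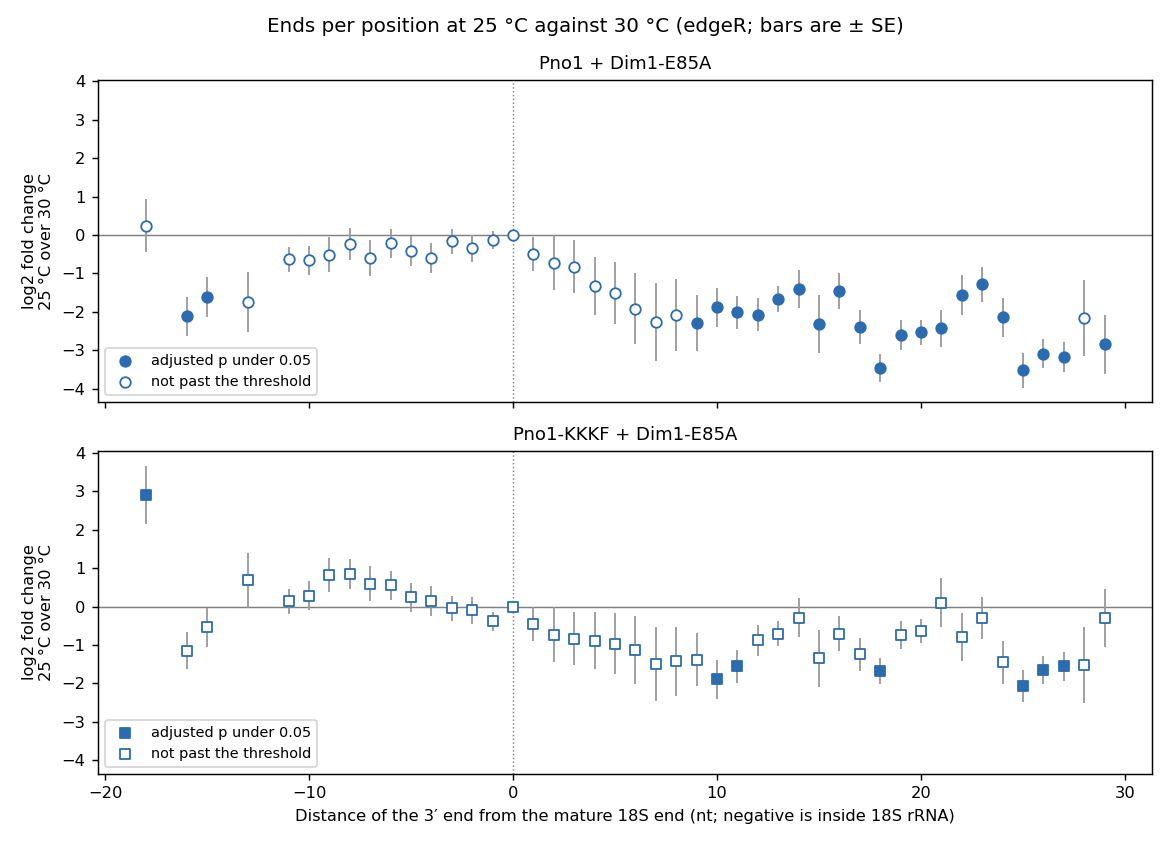
log2 fold change of ends, 25 °C over 30 °C (y axis), at each tested position by its distance from the mature 18S end in nt (x axis), for Pno1 (top) and Pno1-KKKF (bottom), with bars of ± SE. Filled symbols passed an adjusted p of 0.05 in edgeR's quasi-likelihood test, 22 in Pno1 and 7 in Pno1-KKKF. The values near position 0 lie close to 0, and those in ITS1 fall to -3.52 at +25 in Pno1 and -2.07 at +25 in Pno1-KKKF.

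The first 5 nucleotides of ITS1 held 46.3% to 77.0% of the extended ends of a library, and none of them passed edgeR's test in either strain or in the mean. Levels at single positions are given as ends per 1000000 18S ends of the library (EPM). At +1, the first ITS1 base, Pno1 had 306 and 242 EPM at 25 °C, against 609, 300 and 253 at 30 °C. Pno1-KKKF had 306 and 234 at +1 at 25 °C, against 389, 373 and 355 at 30 °C. The Pno1 values overlapped, and the log2 fold change averaged over the strains was -0.48 (SE 0.31, adjusted p = 0.221, edgeR).

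At +4, the most frequent extended end in 4 of the 10 libraries, Pno1 had 217 and 84.97 EPM at 25 °C, against 708, 205 and 222 at 30 °C. Pno1-KKKF had 363 and 90.1 at +4 at 25 °C, against 485, 439 and 329 at 30 °C. The libraries at 25 °C thus differed from each other by as much as the temperatures did. Averaged over the strains the log2 fold change was -1.10 (SE 0.53, adjusted p = 0.099, edgeR). Averaged likewise, the value was -0.73 at +2, -0.83 at +3, -1.24 at +5 and -1.53 at +6. It was -1.88 at +7, -1.75 at +8 and -1.84 at +9, and these last 3 passed the threshold (adjusted p of 0.0471, 0.0471 and 0.0147, edgeR). Only +9 of these 9 positions passed with position 0 as library size, without a filter, with negative drops set to 0, with a minimum mean of 50 ends and with TMM. Of the 9 positions +1 to +9, 1 was called in Pno1 (+9, log2 fold change -2.30) and 0 in Pno1-KKKF, where 0 of 9 passed an unadjusted p of 0.05 too. DESeq2 with the totals as size factors called 4 in Pno1, 0 in Pno1-KKKF and 6 for the mean.

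As regions set against position 0, +1 to +5 differed by -0.83 in log2 odds over both strains, with an SE of 0.50 and an exact permutation p of 0.13 (0.173 adjusted over 8 regions). The region +6 to +10 differed by -1.89 (SE 0.73, exact permutation p = 0.02, adjusted 0.04), which is 3.71-fold lower at 25 °C. That call is fragile: 9 of the 10 omissions of a single library ended it, with values of -2.44 to -1.34.

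From +10 on, single positions passed the test in both strains. At +10 Pno1 had 49.7 and 25.1 EPM at 25 °C, against 135, 118 and 160 at 30 °C. Pno1-KKKF had 47.5 and 24.9 at +10 at 25 °C, against 187, 131 and 83.8 at 30 °C. Every library at 25 °C lay below every library at 30 °C, whichever the strain. The ends at +10 were 3.68-fold lower at 25 °C in Pno1 (log2 -1.88, SE 0.50, adjusted p = 0.0118) and 3.71-fold lower in Pno1-KKKF (log2 -1.89, SE 0.50, adjusted p = 0.0287, edgeR).

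At +18 the 25 °C libraries held 8 and 14 ends in Pno1 and 16 and 22 in Pno1-KKKF. The 30 °C libraries held 102, 81 and 84 ends in Pno1 and 57, 37 and 41 in Pno1-KKKF, although their totals were smaller. The groups were separate in both strains, by a wide margin in Pno1. Ends at +18 were 10.99-fold lower at 25 °C in Pno1 (log2 -3.46, SE 0.36, adjusted p = 0.000121) and 3.19-fold lower in Pno1-KKKF (log2 -1.67, SE 0.34, adjusted p = 0.0137, edgeR).

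The position with the lowest fold change in both strains was +25. It held 37 and 58 ends in Pno1 and 36 and 57 in Pno1-KKKF at 25 °C. At 30 °C it held 445, 278 and 469 ends in Pno1 and 156, 96 and 176 in Pno1-KKKF. The 4 libraries at 25 °C thus gave nearly the same level in both strains, 12.7 ± 3.63 EPM for Pno1 and 12.7 ± 0.522 for Pno1-KKKF (SD, n = 2 each). At 30 °C the level was 147 ± 38.1 EPM for Pno1 and 53.3 ± 15.4 for Pno1-KKKF (SD, n = 3 each). The log2 fold change was -3.52 in Pno1 (SE 0.45, adjusted p = 0.000139) and -2.07 in Pno1-KKKF (SE 0.42, adjusted p = 0.0137, edgeR).

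At +26 and +27, which with +25 form 1 peak, the log2 fold changes were -3.09 and -3.17 in Pno1 and -1.66 and -1.55 in Pno1-KKKF. A limit applies to this peak. Reads began near -40 in all 10 libraries, and between +25 and +29 the depth fell by 90.1% to 96.3% at 25 °C and by 91.8% to 97.1% at 30 °C. In the 6 UMI libraries of the same strains, whose reads reached farther, it fell by 36.7% to 59.6%. Whether the peak marks ends or the reach of the reads was not tested, and a reach shared by both temperatures would leave its count as one of RNAs that ran to +25 or beyond.

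**Figure D3:**
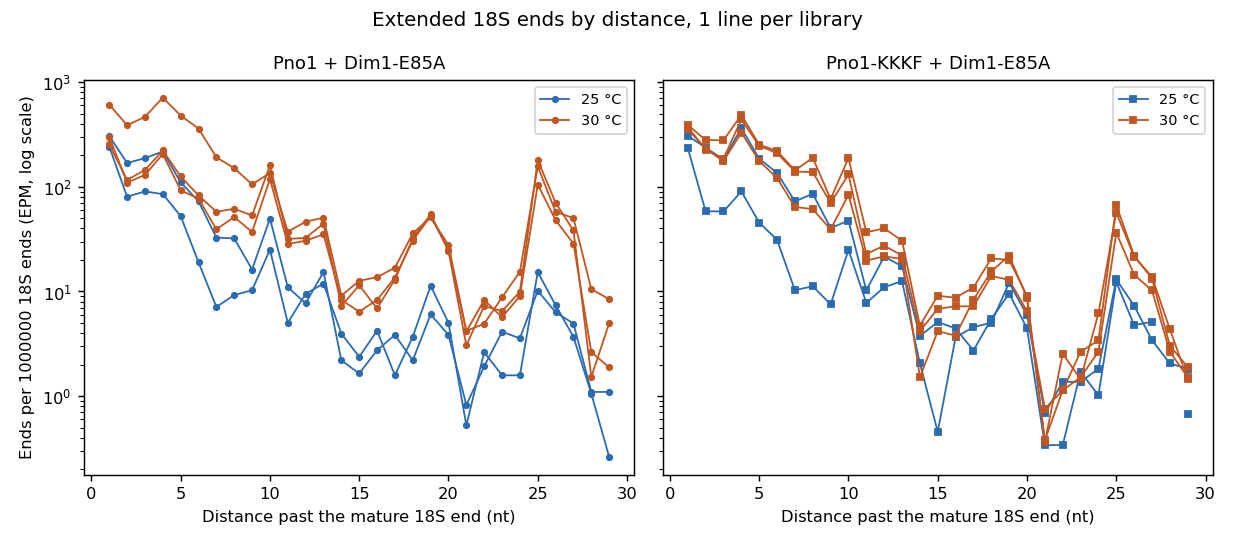
Ends per 1000000 18S ends (EPM; y axis, log scale) by distance past the mature 18S end in nt (x axis), 1 line per library, at 25 °C and 30 °C, for Pno1 (left) and Pno1-KKKF (right). Values of 0 are not drawn. Peaks stand at the same distances at both temperatures, with +10, +18 to +20 and +25 to +27 among them, and from +10 on the lines of 25 °C lie below all those of 30 °C at 13 of 13 positions in Pno1 and 11 of 13 in Pno1-KKKF, counting those that reached the minimum of ends at both temperatures.

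Of the 20 positions from +10 to +29, 7 reached the minimum of ends only through the 30 °C libraries, where a lower value at 25 °C was favoured by the filter, and are left out of the counts here. Of the other 13, 13 were called lower in Pno1, with log2 fold changes of -3.52 to -1.41 and a median of -2.40, beside 16 calls and a median of -1.51 over the 37 positions that reached the minimum at both temperatures. In Pno1-KKKF 6 of the 13 were called lower, with values of -2.07 to -0.29 and a median of -1.24, beside 6 calls and a median of -0.70 over the 37. The mean of the strains gave 12 calls of 13, beside 17 of 37. In Pno1 both 25 °C libraries lay below the 3 at 30 °C at 13 of 13 positions, and in Pno1-KKKF at 11 of 13, against 4 of 9 and 1 of 9 at +1 to +9.

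As regions, +11 to +20 and +21 to +30 had SEs of 0.15 and 0.16 in log2 odds over both strains, below the 0.50 of +1 to +5 and the 0.73 of +6 to +10. Ends at +11 to +20 stood at 57.6 ± 1.41 EPM at 25 °C (SD, n = 2) and 266 ± 31.9 at 30 °C (SD, n = 3) in Pno1. In Pno1-KKKF they stood at 74.9 ± 13.8 EPM at 25 °C and 149 ± 36.0 at 30 °C (SD, n = 2 and 3). Over both strains their odds at 25 °C were 3.01-fold lower, a log2 change of -1.59 ± 0.15 (SE) with an exact permutation p of 0.01 (adjusted 0.0267).

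At +21 to +30 Pno1 had 34.7 ± 0.609 EPM at 25 °C (SD, n = 2) and 286 ± 61.5 at 30 °C (SD, n = 3). Pno1-KKKF had 29.8 ± 5.01 EPM at 25 °C and 99.1 ± 23.0 at 30 °C (SD, n = 2 and 3). These ends were 8.13-fold lower at 25 °C in Pno1 and 3.26-fold lower in Pno1-KKKF, and 5.15-fold lower over both, a log2 change of -2.36 ± 0.16 (SE) with an exact permutation p of 0.01 (adjusted 0.0267). The region contains the peak at +25 to +27, with +25 alone at 147 EPM in Pno1 and 53.3 in Pno1-KKKF at 30 °C. It is therefore no separate evidence from that peak, and the untested reach of the reads limits it too. For both regions, an omission of 1 library at 30 °C left an adjusted p of 0.0333 and an omission of 1 at 25 °C gave 0.05 or 0.0667, which is about as low as the arrangements left allow.

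Beyond +30 the libraries held few ends. At +50 their depth was 0, against 196 to 388 reads in the 6 UMI libraries of the same strains. The part of the reach of the reads in the counts below was not tested. Pno1 had 1 and 2 ends at +31 to +50 at 25 °C, against 25, 15 and 7 at 30 °C. Pno1-KKKF had 2 and 0 at 25 °C, against 8, 7 and 5 at 30 °C. At 25 °C no library held more than the 3 ends taken as the floor of counting. The region passed its test (exact permutation p = 0.01, adjusted 0.0267). Omitting any 1 of the 4 libraries at 25 °C gave an adjusted p of 0.05 or 0.0667, and with depth taken over the whole precursor, where reads that map elsewhere hide low ends, the adjusted p was 0.187.

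Within the universal linker, and among ends within reach of its reads, the extended ends at 25 °C were not only fewer but nearer to the mature end. The mean extension was 4.59 and 5.08 nt at 25 °C, against 6.66, 8.79 and 9.78 nt at 30 °C, in Pno1. In Pno1-KKKF it was 4.79 and 5.41 nt at 25 °C, against 6.06, 5.71 and 6.02 nt at 30 °C. The temperatures did not overlap in either strain. Any extensions longer than the reach of the reads would be missing from the mean at both temperatures, and the part of this limit was not tested. Over both strains the difference in mean extension was -2.204 nt (SE 0.51), with an exact permutation p of 0.02. Without replicate 4 of Pno1-KKKF it was -2.05 nt with an exact permutation p of 0.075, while each of the other 9 omissions left a p of 0.0333 or less.

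The first 5 bases of ITS1 held 77.0% and 77.0% of the extended ends of Pno1 at 25 °C, against 62.8%, 51.7% and 46.3% at 30 °C. In Pno1-KKKF they held 72.1% and 72.6% at 25 °C, against 60.1%, 62.2% and 67.4% at 30 °C. All 4 libraries at 25 °C lay above all 6 at 30 °C. The rest of the extended ends is given by strain, without a test. In Pno1 the ends at +11 and beyond made up 10.1% ± 4.19 of extended ends at 25 °C (SD, n = 2) and 24.9% ± 8.75 at 30 °C (SD, n = 3). In Pno1-KKKF they made up 10.5% ± 5.93 at 25 °C and 10.8% ± 2.11 at 30 °C (SD, n = 2 and 3), and +6 to +10 held 17.2% ± 6.31 at 25 °C and 26.0% ± 5.46 at 30 °C.

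**Figure D4:**
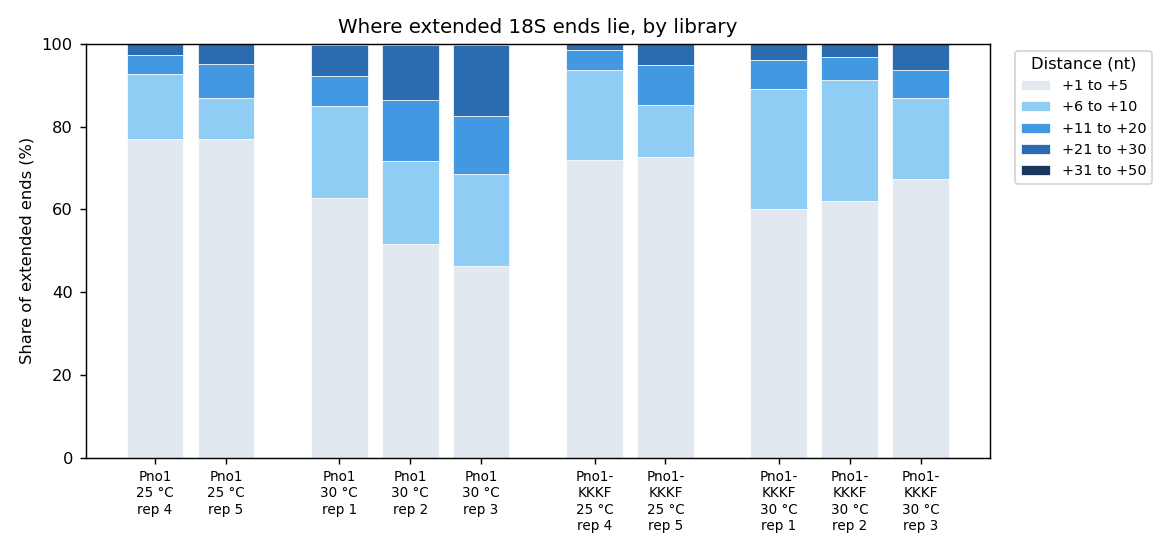
Share of extended ends (%, y axis) in each distance class, 1 stacked bar per library, grouped by strain and temperature. The lightest segment, +1 to +5, takes 72.1% to 77.0% of extended ends in the 4 libraries at 25 °C and 46.3% to 67.4% in the 6 at 30 °C.

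Whether the strains differed in their response was tested as the difference of the temperature contrasts, Pno1-KKKF minus Pno1. No position passed (0 of 45, 0%), while 10 had an unadjusted p under 0.05 in edgeR. At 7 of these 10 both strains were lower at 25 °C, with the fold change nearer 0 in Pno1-KKKF, and at the other 3 (-18, -13 and +21) the Pno1-KKKF fold change was above 0. The smallest p fell on +18, +19 and +20, where the log2 fold changes of the strains lay 1.79 (SE 0.47), 1.84 (SE 0.51) and 1.90 (SE 0.44) apart, with adjusted p of 0.0715, 0.0715 and 0.0662. At +19 the counts were 22 and 43 in Pno1 at 25 °C, against 145, 139 and 143 at 30 °C. In Pno1-KKKF they were 28 and 53 at 25 °C, against 55, 34 and 58 at 30 °C, so that its groups were separate only relative to the library totals.

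DESeq2 with the totals as size factors called 5 positions of this difference, +18, +19, +20, +26 and +27, and with its default size factors 0. Without replicate 5 of Pno1, edgeR called 3, which were +18, +19 and +20. With the replicate number as a block it called 6, which were +18, +19, +20, +25, +26 and +27, although the numbers were not taken as pairs. Only +20 was called with position 0 as library size or with negative drops set to 0. With TMM 0 of the 20 positions from +10 to +29 were called. For the summed extended ends the difference between strains was 0.21 in log2 odds, with an SE of 0.96 (exact permutation p = 0.91), which leaves room for a difference of either sign. For the mean extension it was 2.74 nt (SE 1.01, exact permutation p = 0.23). These permutations shuffled temperature within each strain, so a temperature effect common to both strains widens their spread. Their p therefore refers to no temperature effect in either strain and cannot decide whether the effects were equal.

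Inside 18S rRNA, 0 of the 10 positions from -10 to -1 passed the threshold in either strain or in their mean by edgeR, and 0 had an unadjusted p under 0.05. DESeq2 called 0 of these with the totals as size factors, and with its default size factors 9 of 10 in Pno1, 6 in Pno1-KKKF and 10 for the mean, all higher at 25 °C. The most frequent of them was -4. It had 7836 and 7005 EPM at 25 °C, against 16190, 9437 and 8070 at 30 °C, in Pno1. In Pno1-KKKF it had 23724 and 9113 at 25 °C, against 14144, 17397 and 13058 at 30 °C. Replicate 4 of Pno1-KKKF held the highest value and replicate 5 the lowest of their strain, and the mean log2 fold change was -0.23 (SE 0.27, adjusted p = 0.503, edgeR).

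At -9 replicate 4 of Pno1-KKKF again stood apart, with 9083 EPM beside 3443 in replicate 5 at 25 °C, against 3345, 4074 and 3247 at 30 °C. In Pno1 -9 had 2324 and 1771 at 25 °C, against 4345, 2559 and 1832 at 30 °C. The base next to the mature end, -1, varied less, with 3288 and 3282 EPM at 25 °C, against 4353, 3512 and 2946 at 30 °C, in Pno1. In Pno1-KKKF it had 3467 and 2743 at 25 °C, against 3802, 4095 and 4269 at 30 °C. The Pno1-KKKF groups at -1 did not overlap, but the fold change did not pass (log2 -0.39, SE 0.24, adjusted p = 0.309, edgeR).

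A few rare ends farther upstream did pass for the mean of the strains. Ends at -16 stood at 13.5 and 19.5 EPM in Pno1 and 16.4 and 22.9 in Pno1-KKKF at 25 °C. At 30 °C they stood at 118, 51.3 and 45.5 in Pno1 and 57.5, 41.01 and 32.6 in Pno1-KKKF. The groups were separate in both strains, and averaged over them -16 was 3.10-fold lower at 25 °C (log2 -1.63, SE 0.35, adjusted p = 0.00313, edgeR). The neighbouring end at -15 was 2.11-fold lower (log2 -1.08, SE 0.36, adjusted p = 0.0359, edgeR). In Pno1 both passed (adjusted p of 0.00657 at -16 and 0.0275 at -15, edgeR). In Pno1-KKKF neither did (log2 -1.15 and -0.54, adjusted p of 0.179 and 0.445, edgeR). With TMM or DESeq2's default size factors, neither was called lower for the mean. The region -18 to -11 differed by -0.62 in log2 odds over both strains (SE 0.32, exact permutation p = 0.18, adjusted 0.206).

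The only position called higher at 25 °C was -18, at nucleotide 1782 of 18S rRNA. It held 10 and 12 ends at 25 °C, against 2, 1 and 0 at 30 °C, in Pno1-KKKF. In Pno1 it held 4 and 7 at 25 °C, against 2, 6 and 2 at 30 °C. The call in Pno1-KKKF (log2 2.90, SE 0.76, adjusted p = 0.0287, edgeR) rests on these few ends, at the margin of what can be seen and at a position that reached the minimum through the 25 °C libraries alone. Reads that skipped a base inside 18S rRNA, which lower the depth at that base, reached the level of these rare ends at some positions. At -12 the group means were 0.0273% and 0.0379% at 25 °C, against 0.0273% and 0.0218% at 30 °C (Pno1 and Pno1-KKKF each time). Skips at -14 averaged 0.00337% of depth at 25 °C and 0.0055% at 30 °C in Pno1, and 0.00980% at 25 °C and 0.00390% at 30 °C in Pno1-KKKF, while ends at -16 made up 0.00135% to 0.00229% of ends at 25 °C and 0.00326% to 0.0118% at 30 °C. The part of skips in the ends upstream of -10 was not tested.

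The 6 UMI libraries of the same strains were also grown at 25 °C, with another linker and purification on beads, and are set beside these values without a test. Their ends at +1 to +50 averaged 0.0686% in Pno1 and 0.0859% in Pno1-KKKF (n = 3 each), below the 0.257% and 0.235% of 30 °C. The far extended ends, however, were not as rare as in the 25 °C universal libraries. At +11 to +20 Pno1 had 57.6 ± 1.41 EPM in the universal libraries (SD, n = 2) and 120 ± 25.9 in the UMI libraries (SD, n = 3), both below the 266 ± 31.9 of 30 °C. Pno1-KKKF had 74.9 ± 13.8 in the universal libraries and 199 ± 20.7 in the UMI libraries (SD, n = 2 and 3), the second of which was above the 149 ± 36.0 of 30 °C. At +1 to +5 the order was the opposite, with 769 ± 311 EPM in universal and 348 ± 43.3 in UMI libraries of Pno1 at 25 °C. At +21 to +30 the UMI libraries had 114 ± 34.7 EPM in Pno1 and 198 ± 60.9 in Pno1-KKKF, beside 286 ± 61.5 and 99.1 ± 23.0 at 30 °C (SD, n = 3 each). The mean extension in UMI libraries ran from 7.99 to 12.5 nt, longer than in all 4 universal libraries of 25 °C. It averaged 9.61 nt in Pno1 and 11.5 nt in Pno1-KKKF. These means were also longer than the 8.41 and 5.93 nt of the universal libraries at 30 °C, with overlap of libraries in Pno1. Ends were counted to +50 only, where 196 to 388 reads remained in the UMI libraries and 0 in the universal ones. The means of the 2 linkers are thus cut off differently. The part of linker, purification and read reach in these values was not tested, and the temperatures were compared within the universal linker only.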

How the data were processed

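Per the file headers, the deposited values count the reads that cover each nucleotide of the 35S precursor, which has 6858 of them, without normalization. Bowtie2 2.2.9, cutadapt 3.5 with Trim Galore 0.6.1, SAMtools 1.1.0 and bedtools 2.17.0 are among the tools in the submitters' processing notes. Their settings are not given in the sources used. Ends at a position are the highest depth from there on minus the highest depth from the next position on, from 2450 to 2550 and no further than 1 nt past that window. This last limit was chosen after seeing the data. Samples were grouped by the labels' strain, temperature and linker.

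Shares were compared as log2 odds against position 0 with 0.5 added, by two-sided exact permutation of temperature within strain, adjusted over 3 shares or 8 regions. Positions were tested with edgeR 4.0.16 (R 4.3.3) in 1 fit of the 10 libraries, with 1 mean per strain and temperature and total ends as library size. DESeq2 1.42.0 was an alternative. Python 3.11.15, numpy 2.4.6 and scipy 1.17.1 served the other steps. On simulated data for the mean of both strains (44 positions), edgeR recovered 96.3% of 4-fold and 17.3% of 2-fold changes. It called 1.89% and 0.292% of the unchanged positions in these runs. The simulation gave all positions 1 dispersion and changes in both directions. In the data the SE was 0.22 at +20 and 0.70 at +7, so these rates need not hold at each position. In simulated depth profiles, lasting drops returned the truncated share and the extended ends, each taken as a whole, with an error of 0. The recovery of ends at single positions by lasting drops was not tested.

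The widest 95% Wilson interval of a share reached 0.0245 percentage points to either side. PCR copies are not independent molecules, so intervals and the floor of 3 ends cover counting error only. Named were position 0, -10 to -1, +1 to +10 and up to 15 others per direction and contrast with the smallest p past the threshold (the 3 smallest where none passed). The members, regions and lists were chosen with earlier results of these data known. Same-numbered libraries of the strains were not taken as pairs, since their deviations correlated by -0.0483, -0.00765, 0.118, 0.353 and 0.353. The last 2 are 1 value, because the deviations of 2 libraries from their mean mirror each other. In both strains extended ends were more frequent in replicate 4 than in replicate 5, and at 30 °C most frequent in replicate 1. Whether same-numbered libraries shared a preparation was not tested. Alternatives covered size factors, filters, the derivation of ends, the window, the pseudocount, the scale and single omissions.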

Additional observations from a re-analysis of the deposited data

How the results depend on the processing

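Few libraries and totals dominated by position 0 set the limits. With size factors that assume most positions unchanged, position 0 itself moved, to 0.65 (TMM) and 0.91 (DESeq2 default) on the log2 scale for the mean of strains, 0.89 and 1.24 in Pno1, and 0.42 and 0.58 in Pno1-KKKF. TMM then called 12 positions for the mean (5 higher, 7 lower), 4 in Pno1 (all lower) and 3 in Pno1-KKKF (all higher). DESeq2 default called 22 (13 higher, 9 lower), 17 (11 higher, 6 lower) and 9 (7 higher, 2 lower). At -10, -7, -5, -4, -3, -2, -1, +1 and +2 the mean fold changes turned positive: 0.50, 0.70, 0.60, 0.48, 0.55, 0.45, 0.43, 0.27 and 0.0424 under TMM, and 0.71, 0.89, 0.82, 0.67, 0.80, 0.69, 0.66, 0.49 and 0.22 under DESeq2 default, with 0.13 at +3. A minimum mean of 50 ends left 31 positions and 9, 3 and 9 calls (Pno1, Pno1-KKKF, mean). Pno1-KKKF fitted alone gave 0 of 39 by edgeR (9 at an unadjusted p under 0.05).

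In percentage points, extended ends differed by -0.135 (adjusted p 0.09, exact permutation), +6 to +10 by -0.0407 (0.08), +31 to +50 by -0.000373 (0.0533) and -10 to -3 by 0.0187. With depth over the whole precursor, an alternative chosen after seeing the data, +6 to +10 gave -1.89 (0.0533) and +31 to +50 -1.68 (0.187). The cause of these changes was not tested.

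The strain difference had 1 call with position 0 as library size and 1 with negative drops set to 0 (+20 in both), 5 by DESeq2 with totals, and 6 with the replicate number as a replicate block. The block left the summed shares' differences at 0.57, 0.21 and 0.57 and the mean extension's at 2.74 nt. Within a strain the temperatures share no numbers, so no block was possible there.

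Single omissions gave 12 to 25 calls in Pno1, 0 to 8 in Pno1-KKKF, 14 to 26 for the mean and 0 to 3 for the strain difference; without replicate 5 of Pno1 they were 12 in Pno1 and 14 for the mean, and in Pno1-KKKF there were 0 without its replicate 5, 4 without replicate 1 and 4 without replicate 2. Over both strains, log2 differences ran from -1.55 to -0.83 for extended ends, -0.44 to 0.15 for truncated, -0.51 to 0.0871 for all miscleaved, -2.44 to -1.34 at +6 to +10, -1.70 to -1.49 at +11 to +20, -2.46 to -2.29 at +21 to +30, -3.95 to -2.48 at +31 to +50, -0.46 to 0.19 at -10 to -3 and -0.33 to -0.17 at -2 to -1, which passed without replicate 3 of Pno1. The mean extension ran from -2.64 to -1.86 nt. In Pno1-KKKF truncated ends ran from -0.45 to 0.73 and miscleaved from -0.52 to 0.67, and the strain differences from -0.0177 to 1.16, -0.51 to 0.93 and -0.0234 to 1.17 (truncated, extended, miscleaved); the negative ends fell without replicate 4 of Pno1-KKKF. Mean fold changes crossed 0 at -9 (-0.28 to 0.42), -8 (-0.0137 to 0.53), -7 (-0.42 to 0.25), -6 (-0.0545 to 0.34), -5 (-0.33 to 0.10), -4 (-0.65 to 0.0381), -3 (-0.26 to 0.0244) and 0 (-0.0070 to 0.0127), and in Pno1-KKKF at 0 (-0.0258 to 0.0135). The window of 25 nt and the pseudocount of 5 changed no call among the shares and regions they apply to.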
